A study of Mus musculus with 7 samples.

Results

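Vcam1, the gene of a cell adhesion molecule, lies on mouse chromosome 3 (GRCm38 position chr3:116109949-116129688, minus strand). Described here are 8 genes that lie within 30 Mb of it, of the 32285 genes in the files and of the 923 annotated within that distance: A930005H10Rik, AI504432, Fam241a, Frrs1, S100a10, Scnm1, Synpo2 and Tchh. They were chosen because their unique molecular identifier (UMI) counts had differed in the library of Prdm16-Vcam1 double knockout (DKO) mice, so their difference in that library is given as a description and not as a test. The question was whether the difference was seen in every cell type or only in some. DNA inherited together with the floxed Vcam1 allele would be present in every cell, but its effect by type was not tested. The genotype at these 8 genes was not measured.

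The data are droplet-based 3′ single-cell RNA-seq of the ventricular-subventricular zone (V-SVZ), the stem cell niche along the lateral ventricles, with 7 libraries of mice aged 31 to 33 days, each pooled from 2 to 3 mice. The 3 control libraries came from mice labelled Prdmflox/flox (Prdm16 fl/fl in the Methods, with no Cre), the 3 Prdm16 cKO libraries from hGFAP-Cre+/-; Prdm16flox/flox mice, and the 1 DKO library from hGFAP-Cre+/-; Prdm16flox/flox; Vcam1flox/flox mice. Every group thus carried floxed Prdm16, cKO and DKO shared the Cre, and floxed Vcam1 occurred in the DKO library alone. The human GFAP promoter drives this Cre in radial glia, so cells outside that lineage (microglia, endothelial and mural cells) are not its intended targets, and no group held floxed Vcam1 without Cre. With 1 DKO library, the allele, the pool of mice and the library cannot be told apart.

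Of 65049 barcodes, 43346 passed the filters of 500 to 7000 genes and at most 10% mitochondrial counts, with 1868 to 9502 cells and 23117331 to 105002786 UMIs per library (6895 cells and 75427945 UMIs in the DKO library). Any pair of libraries shared 2 to 70 cell barcodes. Levels are given as CPM, the UMIs of a gene per 1000000 UMIs of all genes in the same cells, and intervals are exact 95% intervals that cover counting error only. Xist, which is transcribed in female cells, stood at 0.435 CPM in control library 1, 0.476 in cKO library 2 and 0.398 in the DKO library, against 633 to 760 CPM in the other 4. The labels give no sex, and the Methods state that both were used. Control library 2 gave 1106 of the 1322 cells (83.7%) of a cluster led by Dcn, Col1a1, Ccl5, Spp1 and Lgals7. This cluster passed the fibroblast markers Dcn, Col1a1 and Col1a2 but not Lum or Igf2. It stayed unnamed and was kept out of all values by cell type. Of 16 clusters, 3 stayed unnamed and the others were named from marker genes, giving 11 cell types. In mural-like cells, which include a cluster that also carried endothelial markers, the endothelial gene Cldn5 reached 31% to 46.9% of its endothelial level, so these types were not cleanly separated.

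The targeted gene Vcam1 was lower in the DKO library than in the other 6. Its level over all kept cells was 52.9, 41.5 and 38.4 CPM in controls, 48.4, 68.3 and 56.9 CPM in cKO and 27.1 CPM in DKO, a ratio of 0.531 to the mean of the other 6 (interval 0.507 to 0.556). It lay below all 6 in 8 of 11 cell types. Among them were endothelial-like cells (ratio 0.303, 30.9 CPM against 55.4 to 232) and mural-like cells (0.156, 7.59 CPM against 13.4 to 86.2). It lay within their range in neuron-, OPC- and microglia-like cells, at ratios of 0.934, 1.02 and 2.48. In microglia-like cells the DKO library stood at 53.6 CPM against 6.40 to 63.1 CPM, and control library 2 alone was higher. Prdm16 stood at 16.2 CPM in the DKO library and between 12.9 and 19.8 CPM in the others, controls included, and 3′ tags need not cover a deleted exon. By type, Prdm16 lay within the range of the others in 6 of 9 types read and below it in astrocyte-like cells. It lay above it in endothelial-like (43.0 CPM against 16.6 to 26.6) and mural-like cells (23.3 CPM against 6.94 to 20.8). Mitochondrial genes held 2.92% of the UMIs of the DKO library and 3.78% to 4.85% of the others.

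The 8 genes were grouped by position and not by role. S100a10 encodes a small protein that binds annexin A2 at the plasma membrane. Scnm1 encodes a component of the minor spliceosome, the machinery that removes a rare class of introns, and was found as a modifier of the sodium channel gene Scn8a. Synpo2 encodes an actin-binding protein of muscle Z-discs and stress fibres, Frrs1 a ferric reductase of membranes, and Tchh trichohyalin, a structural protein of the hair follicle sheath. A930005H10Rik and AI504432 are annotated as transcripts without a coding sequence, and Fam241a encodes a protein whose role is left out here.

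A930005H10Rik (chr3:115881581-115888130, minus strand) lies 222 kb from Vcam1 and is the member closest to it. Frrs1 (chr3:116859464-116908177, plus strand) follows on the other side at 730 kb. Further out on that side are Synpo2 (chr3:123076519-123236149, minus strand) at 6.95 Mb and Fam241a (chr3:127869058-127896324, minus strand) at 11.7 Mb. On the side of A930005H10Rik lie AI504432 (chr3:107039504-107054347, plus strand) at 9.06 Mb, Scnm1 (chr3:95129536-95134011, minus strand) at 21.0 Mb, S100a10 (chr3:93555080-93564643, plus strand) at 22.5 Mb and Tchh (chr3:93442330-93449077, plus strand) at 22.7 Mb. All 8 positions are of whole genes, from start to end of the annotation.

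RefSeq (GRCm38.p6) gave a promoter sequence for 5 of the 8 genes (A930005H10Rik, Fam241a, Frrs1, Synpo2 and Tchh). The 250 bases before the start site are shown for 3 of them: A930005H10Rik, which was raised in the DKO library in every cell type, and Fam241a and Synpo2, which were lowered there in many. Each is written 5′ to 3′ on the strand of the gene, and capitals mark matches on either strand to the letters of the CCAAT box (CCAAT), the TATA box (TATAAA) and the GC box (GGGCGG).
A930005H10Rik (chr3:115888131-115888380): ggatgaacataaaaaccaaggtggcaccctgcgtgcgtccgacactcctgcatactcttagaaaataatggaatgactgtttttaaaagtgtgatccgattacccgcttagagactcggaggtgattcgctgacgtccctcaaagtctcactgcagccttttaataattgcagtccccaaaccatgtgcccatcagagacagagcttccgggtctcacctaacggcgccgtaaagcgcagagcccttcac
Fam241a (chr3:127896324-127896573): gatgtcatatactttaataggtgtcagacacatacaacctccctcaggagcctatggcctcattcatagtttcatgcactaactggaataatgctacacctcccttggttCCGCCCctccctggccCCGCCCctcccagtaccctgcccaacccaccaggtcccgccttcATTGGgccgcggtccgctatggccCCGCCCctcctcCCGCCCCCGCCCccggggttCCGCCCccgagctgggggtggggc
Synpo2 (chr3:123236150-123236399): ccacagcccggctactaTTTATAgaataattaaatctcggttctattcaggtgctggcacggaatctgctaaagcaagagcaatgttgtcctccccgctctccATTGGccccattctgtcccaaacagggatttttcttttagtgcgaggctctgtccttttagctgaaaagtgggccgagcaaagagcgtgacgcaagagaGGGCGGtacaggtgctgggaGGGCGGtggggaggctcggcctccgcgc
None of the 3 motifs was matched in the A930005H10Rik window, which lies within Dph5 on the opposite strand. The Fam241a window held 6 GC boxes and 1 CCAAT box, and that of Synpo2 held 2 GC boxes, 1 CCAAT box and 1 TATA box. Among all 32851 promoters of this table, 33.8% held a CCAAT box, 12.4% a TATA box and 32.7% a GC box in the same window. A match is given as a description of the letters only.

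Over all kept cells, 7 of the 8 genes lay outside the range of the other 6 libraries in the DKO library: A930005H10Rik, S100a10, Scnm1 and Tchh above it, and Fam241a, Frrs1 and Synpo2 below it. Of the 12128 genes with a mean of at least 5 CPM, 7.59% lay above all 6 and 19.9% below, and the median gene was at -0.10 on the log2 scale, so a level near the others sits slightly below 0. This count rests on the contrast that chose the genes, and only 6 of the 8 pass that minimum (not Frrs1 and Tchh). AI504432, the exception, lay within the range. It stood at 15.8 CPM in DKO, against 11.1, 7.56 and 11.6 CPM in controls and 14.7, 29.9 and 30.4 CPM in cKO. In sums over all cells, fewer cells of a type and less RNA per cell cannot be told apart, and the values by cell type follow. Within a type, the share of all genes of at least 5 CPM that lay above the other 6 in the DKO library was 9.33% in NSC-, 10.4% in astrocyte-, 5.42% in TAP-, 6.79% in neuroblast-, 10.1% in neuron-, 11.4% in ependymal-, 10.2% in oligodendrocyte-, 17.0% in OPC-, 16.8% in microglia-, 8.79% in endothelial- and 11.9% in mural-like cells. The share below was 13.8%, 13.4%, 17.4%, 9.78%, 15.3%, 19.2%, 19.5%, 12.8%, 11.3%, 18.7% and 16.7% in the same order. A member was read in a type from 30 UMIs in the other 6, also at levels under 5 CPM. Counts of types that include such levels are not like for like with these shares.

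**Figure D1:**
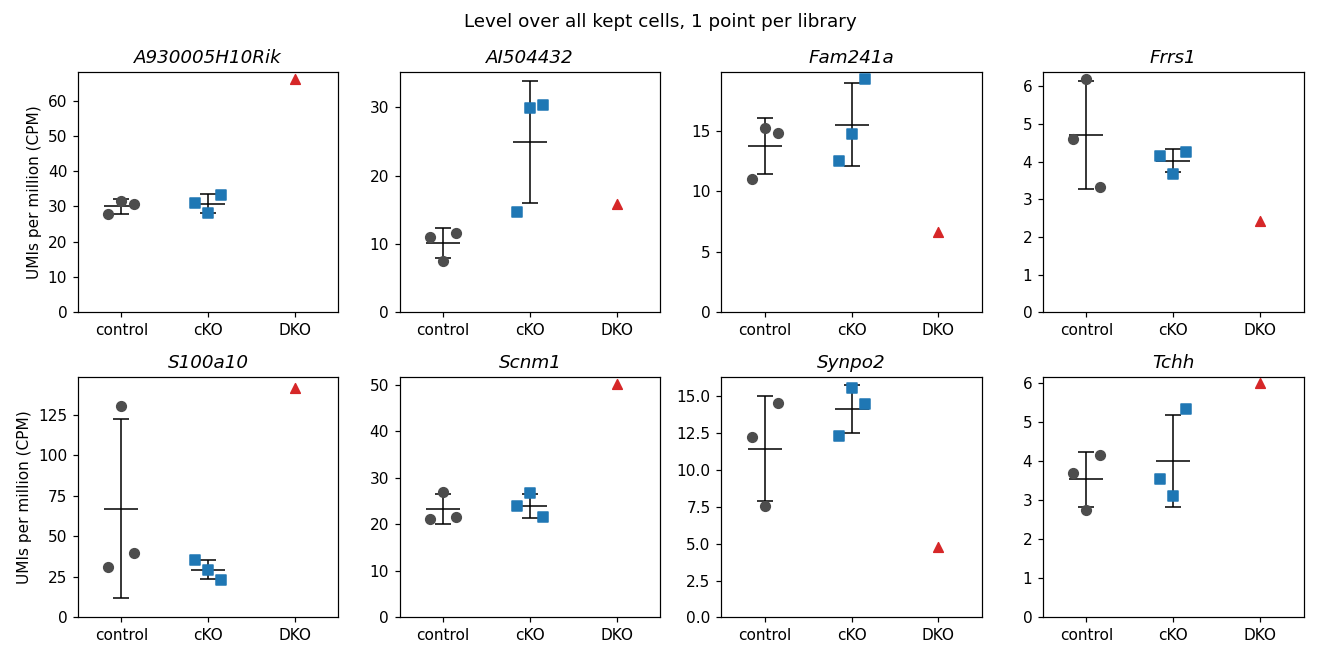
Levels over all kept cells, in CPM, of the 8 genes, with 1 point per library; bars give the mean ± SD of the 3 control and the 3 cKO libraries. The DKO library (triangle) sits above all 6 others for A930005H10Rik, S100a10, Scnm1 and Tchh and below all 6 for Fam241a, Frrs1 and Synpo2.

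A930005H10Rik was raised in the DKO library in every cell type. It stood at 27.7, 31.7 and 30.7 CPM in controls, 30.9, 28.1 and 33.4 CPM in cKO and 66.3 CPM in DKO over all kept cells, a ratio of 2.18 (2.11 to 2.25). The 6 other libraries lay close together and the DKO library stood clear of them. In NSC-like cells (neural stem cells) the control libraries were at 69.7, 89.1 and 83.3 CPM, the cKO libraries at 77.7, 67.2 and 72.2 CPM and the DKO library at 167 CPM. It lay above all 6 in 11 of 11 cell types, with ratios from 1.91 in ependymal-like cells (1.63 to 2.23) to 3.09 in OPC-like cells (2.59 to 3.69) and a median of 2.13. In controls its level was highest in astrocyte-like cells (93.9 ± 3.92 CPM, SD, n = 3) and NSC-like cells (80.7 ± 9.94), then in ependymal-like cells (40.0 ± 6.76), and these 3 did not overlap. From OPC-like cells (23.5 ± 4.05) down to neuroblast-like cells (14.2 ± 3.12), neighbours in the order overlapped. It was raised in the types that are not intended targets of the Cre as well, with ratios of 1.95 in microglia-like cells (1.15 to 3.19), 2.46 in endothelial-like cells (2.05 to 2.95) and 2.71 in mural-like cells (1.93 to 3.76).

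Dph5, a gene of the diphthamide pathway, overlaps the first 294 bases of A930005H10Rik on the opposite strand. It moved the other way: it stood at 14.5 CPM in the DKO library against 17.6 to 21.3 CPM in the other 6, a ratio of 0.789, and lay below all 6 in 7 of 11 cell types. The other 2 nearest protein-coding genes on that side of Vcam1 were also lower, with ratios of 0.724 for Extl2 (below all 6 in 5 of 11 types) and 0.850 for Slc30a7 (3 of 11). On the side of Frrs1, Cdc14a and Rtca lay within the range of the other 6 over all cells. None of these neighbours was raised over all cells.

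Scnm1 was raised in the DKO library in 11 of 11 cell types as well. Its level was 21.2, 27.0 and 21.6 CPM in controls, 23.9, 26.6 and 21.5 CPM in cKO and 50.1 CPM in DKO, a ratio of 2.12 (2.04 to 2.21). The ratio was lowest in endothelial-like cells at 1.54 (1.21 to 1.95) and highest in microglia-like cells at 3.11 (1.93 to 4.90), with a median of 1.96. Neuroblast-like cells, for instance, stood at 35.0, 35.5 and 34.1 CPM in controls, 37.4, 36.7 and 31 CPM in cKO and 68.4 CPM in DKO. Across types in controls Scnm1 was more even than the other members, from 36.3 ± 4.25 CPM in ependymal-like to 13.2 ± 2.86 CPM in microglia-like cells, and most neighbours in the order overlapped. Among all 9132 genes read in all 11 types (at least 30 UMIs in the other 6 libraries), 0.339% lay above the others in all 11 types and 0.0876% below them in all 11. Both genes were chosen on this contrast, so nothing is read from that share. The 31 raised genes included 2 further ones within 30 Mb of Vcam1, Mrpl9 at 21.7 Mb (ratio 1.42) and Pkn2 at 26.7 Mb (ratio 1.40), and the rest lay elsewhere in the genome.

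Other genes of the minor spliceosome and Scn8a were read as a list of 11. Of the 10 that passed the minimum of 5 CPM, 5 lay above the other 6 libraries and 0 below, with a median of 0.23 on the log2 scale against 7.59% above, 19.9% below and a median of -0.10 for all genes. Rnpc3, the U11/U12 65K protein gene, lies 2.48 Mb from Vcam1 and stood at 73.3 CPM against 37.7 to 46.9 CPM, a ratio of 1.70, above all 6 in 9 of 11 types. Zcrb1 on chromosome 15 was likewise above all 6 in 9 of 11 types with a ratio of 1.24, while Scn8a lay within their range (ratio 0.826). In cKO against control, 0 of the 11 passed the edgeR test at an adjusted p of 0.05.

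**Figure D2:**
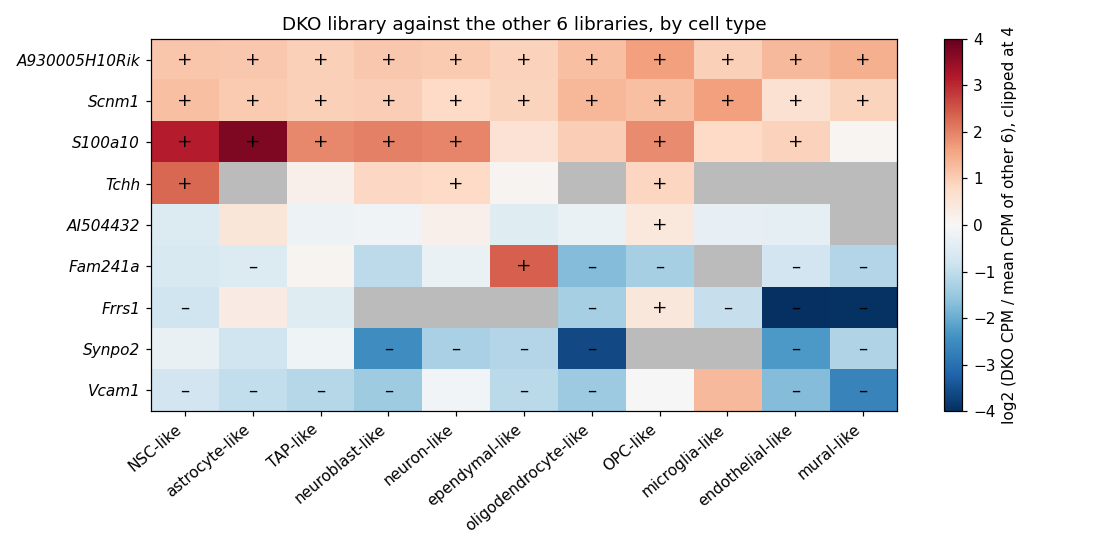
log2 ratio of the level in the DKO library to the mean of the other 6 libraries, by gene and cell type, for the 8 genes and Vcam1; + and – mark types in which the DKO library lay above or below all 6 others, and grey marks types with fewer than 30 UMIs in the other 6. A930005H10Rik and Scnm1 are + in 11 of 11 types, whereas no other gene is marked alike in every type read.

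Among the raised genes, S100a10 showed the widest spread of ratios between cell types. Over all kept cells it stood at 31.1, 131 and 39.9 CPM in controls, 35.2, 29.5 and 23.4 CPM in cKO and 142 CPM in DKO. Control library 2 was thus nearly as high as the DKO library, and 3558 of its 6118 S100a10 UMIs came from the unnamed cluster with fibroblast genes. Summed over the named cell types alone, control library 2 stood at 56.7 CPM, the other 5 at 22.7 to 38.2 CPM and DKO at 139 CPM, which moves the ratio from 2.94 to 4.02. Over all kept cells but without control library 2, the log2 ratio rose from 1.55 to 2.16.

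In NSC-like cells S100a10 was at 6.06, 13.6 and 14.9 CPM in controls, 13.9, 23.0 and 25.0 CPM in cKO and 143 CPM in DKO, a ratio of 8.90 (8.05 to 9.85). In astrocyte-like cells the DKO library was at 46.2 CPM against 1.16 to 6.11 CPM, a ratio of 13.2 (9.77 to 18.1). Both types lie in the lineage of the Cre and held little S100a10 in the 6 other libraries. The ratio was 4.08 in neuroblast-like cells (432 CPM against 55 to 146), 3.78 in TAP-like cells (transit-amplifying progenitors), 3.88 in neuron-like cells and 3.75 in OPC-like cells. It was 1.90 in endothelial-like cells, where the DKO library still lay above all 6. In ependymal-like cells, where control levels (145 ± 50.3 CPM) overlapped those of neuroblast-like cells (128 ± 20.4), and in oligodendrocyte-, microglia- and mural-like cells the DKO library lay within the range of the others, at ratios of 1.5, 1.97, 1.74 and 1.06. The mural-like value was 39.7 CPM against 26.8 to 54.5 CPM. In ependymal-, oligodendrocyte- and microglia-like cells control library 2 alone was higher, at 195, 7.48 and 51.3 CPM against 193, 5.91 and 40.2 CPM in DKO. Without that library, a choice made after the values were seen, the DKO library lay above all 5 others in 10 of 11 types, all but mural-like cells. Leaving out a library can only narrow the range, so this count could not fall.

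Free RNA from abundant cells can enter every droplet, so S100a10 was set beside Dcx, a gene of neuroblasts that other types of the lineage may also express. In the DKO library Dcx stood at 1.19% of its neuroblast level in NSC-like cells and at 0.963% in astrocyte-like cells, whereas S100a10 stood at 33.1% and 10.7% of its own neuroblast level there. In OPC- and neuron-like cells the order was reversed, with 3.41% and 5.65% for S100a10 against 9.45% and 11.5% for Dcx. In NSC- and astrocyte-like cells the S100a10 share exceeded the Dcx share in every library, so that gap was not particular to the DKO library. The NSC-like share of S100a10 ran from 5.73% in control library 1 to 36.9% in cKO library 3 and 41.8% in cKO library 2. The part of free RNA in the S100a10 values was not tested.

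**Figure D3:**
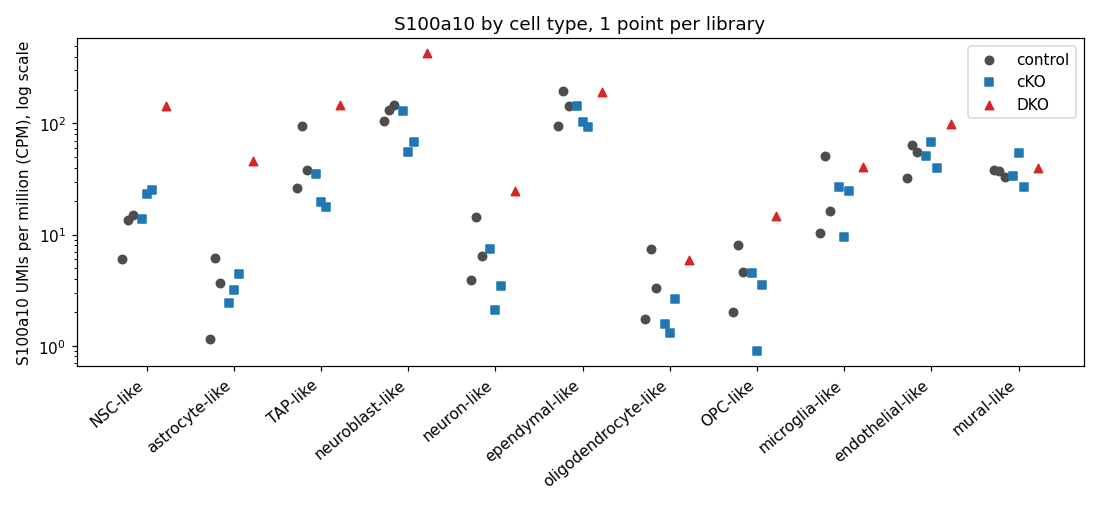
S100a10 level in CPM (log scale) by cell type, with 1 point per library for control, cKO and DKO. The DKO library stands at 143 CPM in NSC-like and 432 CPM in neuroblast-like cells, above all others, and lies among them in ependymal-, oligodendrocyte-, microglia- and mural-like cells, in the first 3 of these below control library 2 only.

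Of the annexin and S100 genes listed as partners of S100a10, 11 of 12 passed the minimum, and 0 lay above and 2 below the other 6 libraries, with a median of -0.18 on the log2 scale, against 7.59% above, 19.9% below and a median of -0.10 for all genes. Anxa2, the annexin that S100a10 binds, stood at 47.3 CPM in the DKO library against 49.8 to 77.2 CPM. S100a11, which lies 22.6 Mb from Vcam1 beside S100a10, was within the range over all cells (ratio 1.43) but above all 6 in 7 of 11 types. S100a6, S100a4, S100a1, S100a13 and S100a16 lie in the same window and were above all 6 in 2, 0, 1, 1 and 0 of 11 types.

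Tchh was raised in NSC-like cells above all. In these cells it stood at 2.80, 1.59 and 1.36 CPM in controls, 3.66, 4.53 and 7.80 CPM in cKO and 17.9 CPM in DKO, a ratio of 4.93 (3.88 to 6.28). The DKO library was highest, and every cKO library exceeded every control. Over all cells the level was 5.99 CPM in DKO against 2.75 to 5.34 CPM. Of 6 types read it lay above all 6 libraries in NSC-, neuron- and OPC-like cells (ratios 4.93, 1.72 and 1.81) and within their range in TAP-, neuroblast- and ependymal-like cells. Ependymal-like cells held the most Tchh in controls (31.8 ± 7.23 CPM), ahead of neuron-like cells (12.6 ± 2.18), and the DKO library stood at 30.0 CPM there, among the others. The 7 related genes listed for Tchh (such as Flg, Hrnr and Krt71) were at or near 0 in every library.

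Synpo2 was lowered in the DKO library in 6 of 9 types read. Over all cells it was at 12.2, 7.54 and 14.6 CPM in controls, 12.3, 15.5 and 14.5 CPM in cKO and 4.8 CPM in DKO, a ratio of 0.375 (0.336 to 0.418). Endothelial-like cells gave 85.3, 72.0 and 71.3 CPM in controls, 66.6, 79.7 and 81.6 CPM in cKO and 15.6 CPM in DKO, a ratio of 0.205 (0.154 to 0.267). In ependymal-like cells, the type with the highest control level (81.5 ± 12.1 CPM), the DKO library stood at 35.1 CPM against 67.1 to 90.1 CPM, a ratio of 0.443 (0.354 to 0.549). NSC-like cells differed from these: the DKO library, at 15.9 CPM, lay within the 15.2 to 21.6 CPM of the others, and the interval of its ratio (0.677 to 0.985) lies above those of endothelial- and ependymal-like cells. Such a gap between types covers counting error only, since 1 library gives no spread. Mural-like cells stood at 16.9 CPM against 28.0 to 56.0 CPM. The lowest ratio, 0.0825 in oligodendrocyte-like cells, rests on 1 UMI in the DKO library (0.00206 to 0.474). That of neuroblast-like cells, 0.178, rests on 2 UMIs (0.0207 to 0.691). Of 8 measured actin and Z-disc partners of Synpo2, 0 lay above and 3 below the other 6 (Synpo, Flna and Zyx), with a median of -0.34 on the log2 scale, and 19.9% of all genes lay below.

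Fam241a was lowered in some types and raised in another. Over all cells it stood at 11.1, 15.3 and 14.9 CPM in controls, 12.5, 14.8 and 19.3 CPM in cKO and 6.63 CPM in DKO, a ratio of 0.453 (0.413 to 0.497). With the cell types weighted equally the log2 ratio was -0.50, against -1.14 over all cells. In oligodendrocyte-like cells the controls were at 25.4, 26.2 and 22.4 CPM, the cKO libraries at 21.9, 23.3 and 21.6 CPM and the DKO library at 7.0 CPM, a ratio of 0.298 (0.245 to 0.360). Mural-like cells, which held the most in controls (62.6 ± 2.02 CPM), gave 28.0 CPM in DKO against 57.8 to 71.7 CPM. Endothelial- and OPC-like cells were also below all 6 others, at ratios of 0.592 and 0.398, and astrocyte-like cells at 0.686 (0.262 to 1.53), there with 7 UMIs. In neuron-like cells, with a control level of 34.5 ± 13 CPM close to that of endothelial-like cells, the DKO library was within the range (29.5 CPM against 20.3 to 48.9). The opposite direction appeared in ependymal-like cells, at 9.07 CPM in DKO against 0 to 3.50 CPM, a ratio of 5.20 (3.03 to 8.66) from 23 UMIs.

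Frrs1 was almost unread in endothelial-like cells of the DKO library. There the controls stood at 23.9, 24.8 and 14.0 CPM, the cKO libraries at 22.4, 12.5 and 22.4 CPM and the DKO library at 0.269 CPM, from 1 UMI, a ratio of 0.0134 (0.000339 to 0.0755). In mural-like cells 1 UMI gave 0.584 CPM against 4.36 to 12.8 CPM, a ratio of 0.0649 (0.00162 to 0.371). In microglia-like cells, where control levels were highest (55.6 ± 3.91 CPM), the DKO library stood at 28.1 CPM against 44.8 to 59.7 CPM, a ratio of 0.530 (0.322 to 0.827). OPC-like cells showed no such loss, with 22.1 CPM, level with the highest of the others (11.6 to 22.1 CPM), and a ratio of 1.37 (1.03 to 1.81). Astrocyte-like cells lay within the range of the others at 9.02 CPM. Of 8 types read, 5 lay below all 6 libraries, 2 within and 1 above. Among the 5 were oligodendrocyte-like cells, from 4 UMIs in the DKO library (ratio 0.398, interval 0.105 to 1.08). NSC-like cells were among them too, from 12 UMIs (0.570, 0.283 to 1.05). Both of these intervals include 1. None of the 6 measured ferric reductase and iron uptake genes lay above the other 6, and 2 lay below (Cyb561, ratio 0.501, and Slc11a2, ratio 0.694), against 7.59% and 19.9% of all genes.

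AI504432 lay within the range of the other 6 libraries in the DKO library in 9 of 10 types read, and above it in OPC-like cells (16.4 CPM against 10.5 to 14.1 CPM). That range takes in both control and cKO libraries, which stood apart for this gene in some types. Over all cells the DKO ratio was 1.57 to the control mean and 0.633 to the cKO mean. AI504432 was the 1 member that passed the edgeR test of cKO against control as set out here. The comparison of the 3 cKO with the 3 control libraries was tested with edgeR on counts summed per library and cell type. The rule that chose the genes names the DKO library and not this comparison. Earlier results of these data were known, however, and a difference of DKO from controls or from cKO shares their libraries. The adjusted p-values are therefore not free of that choice. In astrocyte-like cells AI504432 stood at 5.03, 2.04 and 6.32 CPM in controls, 28.8, 81.9 and 64.0 CPM in cKO and 44.3 CPM in DKO, and its log2 change in cKO was 3.55 ± 0.48 (SE; edgeR, Benjamini-Hochberg adjusted p = 0.0184). In ependymal-like cells the controls were at 6.62, 11.4 and 5.84 CPM and the cKO libraries at 17.3, 22.6 and 22 CPM, a log2 change of 1.61 ± 0.27 (edgeR, adjusted p = 0.0449), with 10.3 CPM in DKO. All 3 cKO libraries exceeded all 3 controls in both types. These 2 were the only ones of 72 pairs of member and type tested that passed, and edgeR called 1.06% of 12260 genes higher in cKO astrocyte-like cells and 0.144% of 13913 genes in ependymal-like cells. Leaving out control library 1, 2 or 3 or cKO library 3 raised the astrocyte-like adjusted p to 0.147, 0.0908, 0.0664 and 0.0657 (edgeR), at log2 changes of 3.26 to 4.03, and the ependymal-like call was lost without control library 1, 2 or 3 or cKO library 2 or 3 (edgeR, adjusted p = 0.163, 0.184, 0.303, 0.180 and 0.186). Some markers that served to name the clusters also shifted in cKO. In astrocyte-like cells Agt, listed for astrocytes, averaged 105 CPM in controls and 1194 CPM in cKO. Thbs4, listed for NSCs, averaged 178 and 46.9 CPM there. In ependymal-like cells Tmem212, listed for that type, averaged 1895 and 1756 CPM. The part of cell make-up in these changes was not tested.

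In NSC-like cells AI504432 was at 15.8, 12.2 and 15.6 CPM in controls, 32.2, 92.8 and 93.0 CPM in cKO and 29.8 CPM in DKO. The log2 change was 2.40 ± 0.43 (edgeR, adjusted p = 0.0782), short of the threshold. It passed with DESeq2 (adjusted p = 4.73e-10), with the replicate block and without cKO library 1 (edgeR, adjusted p = 0.0339 and 3.39e-08), and with a marker gate in place of clusters it was 1.02 ± 0.33 (edgeR, adjusted p = 0.457). The NSC-like cluster also passed 6 astrocyte markers. In it Agt averaged 18.9 CPM in controls and 440 CPM in cKO, and Thbs4 491 and 157 CPM. The cluster held 1069, 426 and 1179 cells in controls and 821, 201 and 626 in cKO. The gate named 489, 158 and 499 cells NSC in controls and 326, 39 and 81 in cKO. The part of cell make-up in this change was not tested. Neuroblast-like cells gave 8.14, 6.51 and 8.80 CPM in controls and 14.6, 46.5 and 32.0 CPM in cKO, at 2.00 ± 0.38 (edgeR, adjusted p = 0.322), and passed under several other settings given with the limits. Neuron-, OPC- and oligodendrocyte-like cells held overlapping levels in control and cKO: in neuron-like cells, where controls were highest (33.6 ± 9.49 CPM), the values were 43.3, 24.3 and 33.2 CPM in controls and 31.5, 25.6 and 30.8 CPM in cKO. In 1 fit over all types with the library as a block, the cKO change exceeded that in oligodendrocyte-like cells by 3.26 ± 0.40 in astrocyte-like, 2.05 ± 0.33 in NSC-like and 1.62 ± 0.35 in neuroblast-like cells on the log2 scale (edgeR, adjusted p = 1.06e-06, 7.15e-05 and 0.0491); this fit was chosen after the values were seen. In ependymal-like cells the excess was 1.48 ± 0.40 (edgeR, adjusted p = 0.183). The types of a library enter this fit as independent once the library's mean is removed, so its p-values may be too small. An antisense gene, Gm27008, spans AI504432 on the opposite strand and had at most 1.51 CPM in any of the 6 libraries.

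**Figure D4:**
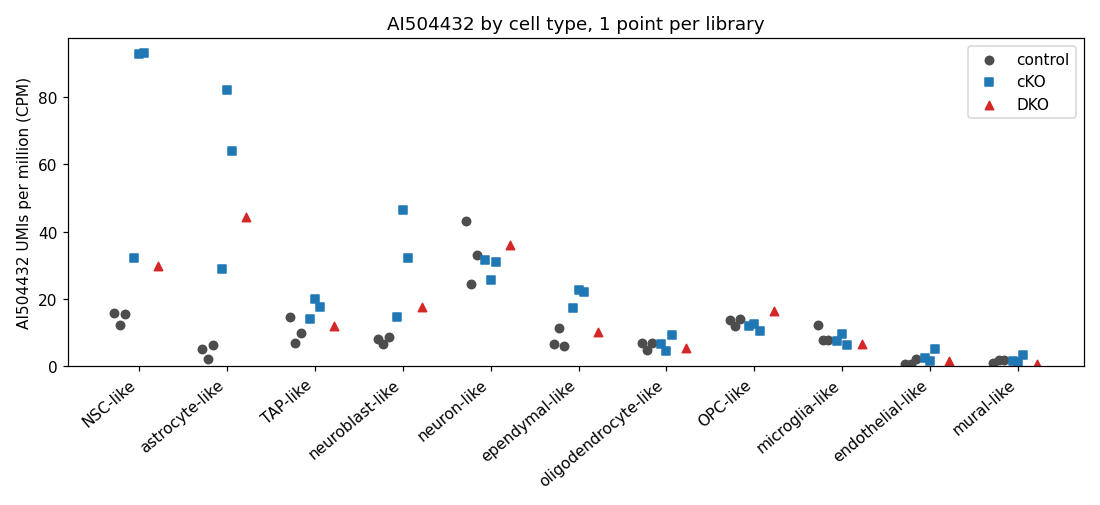
AI504432 level in CPM by cell type, with 1 point per library for control, cKO and DKO. In astrocyte-like cells the 3 cKO libraries (28.8 to 81.9 CPM) and the DKO library (44.3 CPM) sit above the 3 controls (2.04 to 6.32 CPM), whereas in neuron-like cells the groups overlap.

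The other 7 genes did not pass this edgeR test of cKO against control in any type, while Tchh, Frrs1 and S100a10 passed in some types under other settings, given with the limits. The share of genes that edgeR called higher in cKO was 0.14% in NSC-, 0.0293% in neuroblast- and 0.0827% in neuron-like cells, and the share called lower was 0.188% in astrocyte-, 0.00719% in ependymal- and 0.00888% in mural-like cells; no gene was called in the other types or directions beyond those given above. For Tchh in NSC-like cells the log2 change was 1.63 ± 0.41 and for Frrs1 in astrocyte-like cells 1.42 ± 0.39 (edgeR, adjusted p = 0.0997 and 0.0992). A930005H10Rik and Scnm1 had log2 changes of -0.38 to 0.25 over all types, with SE of 0.15 to 0.48. The 2 genes raised in every type of the DKO library did not differ detectably between the cKO and the control libraries. Over all kept cells edgeR called 0.00512% of 19531 genes higher and 0% lower in cKO, and 0 of the 8 members; 971 genes had an unadjusted p under 0.05, and DESeq2 called 81 genes higher and 1 lower.

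In the DKO library, 10 of 376 genes within 30 Mb of Vcam1 (2.66%) were past 2-fold and outside the range of the other 6, against 110 of 11752 genes elsewhere (0.936%) and 3 of 314 genes within 30 Mb of Prdm16 (0.955%), the other floxed gene, which is floxed in every library. Of all 12128 genes, 0.371% were above the others and past 2-fold and 0.618% below. Of the 10, 5 are members (A930005H10Rik, S100a10, Scnm1, Fam241a and Synpo2), chosen for this difference, and without the members 5 of 370 genes (1.35%) remained past 2-fold. The others were the histone genes Hist2h2ac (ratio 4.06) and Hist2h2bb (2.36), Fcrls, a microglial gene (2.20), Etnppl (2.02) and Sec24d (0.5). Histone genes were also raised elsewhere, 24 of 35 outside the window against 2 of 6 within it, and without them the counts were 8 of 370 within 30 Mb (2.16%) and 86 of 11717 elsewhere (0.734%). Without the members and the histone genes, 3 of 364 genes within 30 Mb (0.824%) were past 2-fold. No genes chosen like the members were left out elsewhere, so this share and the one elsewhere are not like for like. Chromosome 3 beyond 30 Mb had 1 of 226 genes past 2-fold (0.442%).

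By distance, and leaving out the members and Vcam1 itself, 0 of 14 genes within 1 Mb were past 2-fold, 0 of 8 from 1 to 5 Mb, 1 of 57 from 5 to 10 Mb, 3 of 110 from 10 to 20 Mb and 1 of 180 from 20 to 30 Mb. A looser measure, lying outside the range of the other 6 at any size, gave 7 of these 14 genes, 4 of the 8, and 21.1%, 21.8% and 28.3% in the 3 further bins, against 27.4% elsewhere in the genome; the first 2 bins hold under 20 genes each. By cell type, without the members, Vcam1 and the histone genes, 1 to 17 genes within 30 Mb were past 2-fold. The share was higher than elsewhere in 8 of 11 types, for instance 3.1% against 1.63% in neuron-like cells, and not higher in TAP- (0.331% against 0.343%), oligodendrocyte- (0.717% against 0.851%) and microglia-like cells (5.26% against 6.77%). With only the members left out it was higher in 10 of 11. These counts are small and were not tested, and no genes chosen like the members were left out elsewhere. Genes above all 6 in at least 50% of the types read made up 4.98% of 442 genes within 30 Mb without the members and Vcam1, 3.72% of 349 genes within 30 Mb of Prdm16 without Prdm16, and 3.77% of 13225 genes outside the Vcam1 window. Genes below all 6 in as many types made up 6.11%, 6.88% and 4.92% in the same order.

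**Figure D5:**
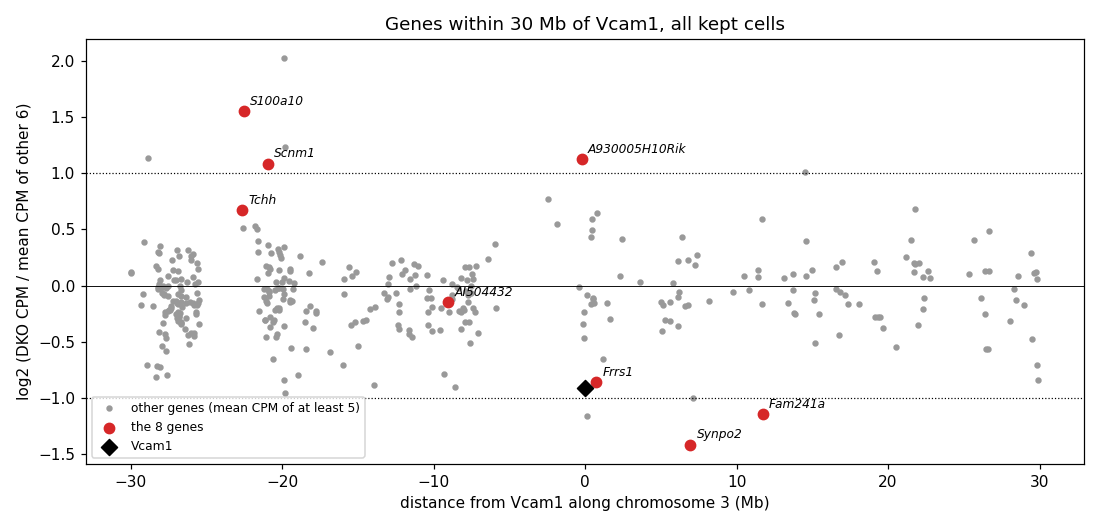
log2 ratio of the DKO library to the mean of the other 6 libraries against distance from Vcam1 (Mb), for genes with a mean of at least 5 CPM (grey), the 8 genes (red) and Vcam1 (diamond); dotted lines mark 2-fold. The raised members A930005H10Rik, Scnm1, S100a10 and Tchh lie on one side of Vcam1 and the lowered members Frrs1, Synpo2 and Fam241a on the other, and AI504432 lies near 0 at -0.15.

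Of the members past the minimum, S100a10 had the second largest difference of the 376 genes, Synpo2 the third, Fam241a the sixth, A930005H10Rik the eighth and Scnm1 the ninth, while AI504432 ranked 232. The members nearest to 2-fold were Scnm1, past it at 1.08 on the log2 scale, and Frrs1, short of it at -0.85 (-1.62 with the cell types weighted equally). The genes whose profile over the 11 cell types in controls was most like that of a member (Pearson's r of log2(CPM + 1), a description over types that share libraries) were Gask1a and Slc27a1 for A930005H10Rik (r = 0.983 and 0.980), Ttc5 and Cplane1 for Scnm1 (0.945 and 0.919), Csrp2 and Pfdn5 for S100a10 (0.920 and 0.920) and Gpr135 and Cdr1 for Tchh (0.973 and 0.971). For the lowered members they were Il17rc and Gbp2 for Synpo2 (0.957 and 0.95), Atxn1l and Zfp707 for Fam241a (0.961 and 0.943) and Mfsd1 and Disc1 for Frrs1 (0.963 and 0.941). For AI504432 they were Ppp1r9a and Gm10501 (0.932 and 0.913).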

How the data were processed

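Single-cell RNA-seq libraries (10x Genomics 3′ v3.1) of the V-SVZ were examined, 3 control, 3 cKO and 1 DKO. The authors deposited raw counts: Cell Ranger assigned reads to genes of GRCm38 (mm10), counted each UMI once and kept called cells, with no normalization. The file headers name version 6.1.1 for the DKO library and replicate 3 of both other groups, and 6.0.1 for replicates 1 and 2, whereas the labels name 6.1.1 throughout.

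Cells with 500 to 7000 genes and at most 10% mitochondrial counts were kept. They were integrated and clustered in Seurat 5.3.0 (R 4.3.3; 30 principal components, resolution 0.15) as in the Methods, with 66 variable features within 30 Mb of Vcam1 left out. Naming a cluster took 3 or more listed markers, each detected in 10% or more of the cluster and exceeding the remaining cells by a log2 difference of 1 or more. No doublet caller was run, and doublets were limited by the 7000-gene maximum only. Counts were summed per library and type with at least 10 cells in every library. Gene positions are from GENCODE vM21, which held 99.8% of the identifiers.

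The cKO and control sums were compared in edgeR 4.0.16 (expression filter, TMM, robust quasi-likelihood test, Benjamini-Hochberg adjustment over all genes of a type, threshold 0.05), with all 7 libraries in the fit. On simulated counts for cKO against control in NSC-like cells (14319 genes), edgeR recovered 197 of 200 genes changed by 2 on the log2 scale, with 12 false calls. Every simulated gene was given the spread typical of its level, without further spread of single genes. Only genes of at least 5 CPM were changed. The recovery therefore does not give the chance of finding such a change in a member. The DKO library was compared without a test, as CPM and ratio to the mean of the other 6, with exact Poisson-based intervals. A type was read for a gene with at least 30 UMIs in the other 6. Nothing states that libraries of equal replicate number share an origin, and whether libraries differ by animals alone is not known. The p-values of the tests by type therefore measure the spread between these libraries. Those of the fit over all types also treat the types of a library as separate values.

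The members and the gene lists were chosen with earlier results of these data known. Named genes were the members, Vcam1 and Prdm16, the 5 other genes within 30 Mb that were past 2-fold, protein-coding genes next to Vcam1, the 2 genes most like each member, and the listed partners; genes raised in all 11 types, genes overlapping a member and Xist were named after their values were seen. Alternatives were DESeq2 1.42.0, DESeq2 size factors, no filter on low counts, other cell filters, a marker gate, a replicate block, TMM-normalized CPM, other thresholds and windows, equal weights for types, 1 Cell Ranger version, and each library left out. Added after the data were seen were sums over the named types, the 2 libraries low in Xist as the only comparison, no histone genes, no members, no Vcam1, no control library 2 by type, and 1 fit over all types. An item covered by these rules is not reported here.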

Additional observations from a re-analysis of the deposited data

Results flagged for a closer look

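AI504432 changed in cKO by different amounts in different cell types. Its log2 change in cKO against control exceeded that in oligodendrocyte-like cells by 3.26 in astrocyte-like cells, by 2.05 in NSC-like cells and by 1.62 in neuroblast-like cells, in a test of the difference itself (edgeR, 1 fit over all types with the library as a block; adjusted p = 1.06e-06, 7.15e-05 and 0.0491). Among all 16259 genes of that fit, 53, 222 and 9 passed the same test in these types. The fit takes the types of a library as independent once the library's mean is removed, so its p-values may be too small. Markers of the astrocyte- and NSC-like clusters also differed between cKO and control, and the part of cell make-up was not tested. In neuron-like and OPC-like cells the differences were -0.39 ± 0.34 and -0.38 ± 0.41 (SE), and neither passed. Groups held 3, 3 and 1 libraries, so single outlying libraries were not looked for.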

How the results depend on the processing

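The count of members outside the range of the other 6 libraries was 6 with all deposited barcodes, where S100a10 stood at 138 CPM in the DKO library against at most 140.5 CPM, and 7 with TMM scaling, at no more than 5% mitochondrial counts, with the marker gate and over named types only. It was not counted with the types weighted equally, and with fewer comparison libraries it could not fall, since the range can only narrow. Against control library 1 and cKO library 2 alone, which share the low Xist level of the DKO library, the log2 ratios were 1.25 for A930005H10Rik, 1.07 for Scnm1, 2.23 for S100a10, 0.82 for Tchh, -0.96 for Fam241a, -0.78 for Frrs1 and -1.53 for Synpo2. With the types weighted equally they were -0.50 for Fam241a and -1.62 for Frrs1, against -1.14 and -0.85 over all cells. The number of genes within 30 Mb past 2-fold was 10; it was 25 at 1.5-fold, 4 at a mean of at least 20 CPM, 3 within 10 Mb and 5 without the members, and 8 to 12 with 1 library left out. TMM scaling moved the median gene from -0.10 to 0.0016 on the log2 scale. The number of member and type pairs called in cKO was 2; it was 5 with DESeq2, 5 with no filter on low counts, 6 with the replicate block and 1 at no more than 5% mitochondrial counts, and 0 to 7 with 1 library left out (7 without cKO library 1, 1 without cKO library 2, and 0 without cKO library 3 or any 1 control library). AI504432 in NSC-like cells passed with DESeq2 (adjusted p = 4.73e-10), with the replicate block and without cKO library 1 (edgeR, adjusted p = 0.0339 and 3.39e-08), and in ependymal-like cells it did not with at most 5% mitochondrial counts or the marker gate (edgeR, adjusted p = 0.159 and 0.589). In neuroblast-like cells it passed with DESeq2 (adjusted p = 1.51e-05), with no filter, with the replicate block and without cKO library 1 (edgeR, adjusted p = 4.18e-13, 0.0118 and 9.76e-05). With the marker gate its log2 change was 1.02 in NSC-like and 1.31 in neuroblast-like cells, against 2.40 and 2.00. Of other members, Tchh passed in NSC-like cells with DESeq2 and with no filter (adjusted p = 0.0324 and, in edgeR, 0.00748) and in astrocyte-like cells with the marker gate (edgeR, 0.0126), Frrs1 in astrocyte-like cells with no filter and with the replicate block (edgeR, 0.0194 and 0.0209), and S100a10, higher in cKO, in NSC-like cells with the block (log2 0.97; edgeR, 0.0304). Without cKO library 1, Tchh passed in NSC-like and Frrs1 in astrocyte-like cells, both higher, and S100a10 in neuroblast-like cells, lower in cKO (log2 -0.997; edgeR, 0.0254). The deviations of genes from their group mean were correlated between equally numbered control and cKO libraries. These correlations exceeded 0.1 in every pair only in endothelial-like cells (0.235, 0.116 and 0.440), where the block called 0 members. In several other types all were positive but that of pair 2 was below 0.1. Over all kept cells they were 0.525, -0.050 and 0.687. The DKO ratios rest on 1 library, so their intervals hold counting error only.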
